A study of Schmidtea mediterranea with 36 samples.

Results

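Normal tail regeneration was followed here over a single day, by comparing *control(RNAi)* tail fragments of the planarian *Schmidtea mediterranea* at 72 h post-amputation (72 HPA, 3 libraries) with *control(RNAi)* tail fragments at 48 HPA (3 libraries). These 6 libraries were chosen by their labels, without any measured value, out of 36 in the series. Both groups were asexual animals of strain CIW4 that had been given 9 feedings of *GFP* double-stranded RNA, a sequence the worm does not have, so every control also carries the handling of an RNAi experiment. They were cut below the pharynx 4 days after the last feeding and the tail pieces were left to regenerate a head. The other 30 libraries were *alx-3(RNAi)* tail fragments at all 5 times (0.5, 6, 24 h and the same 48 and 72 h), *control(RNAi)* tail fragments at the 3 earlier times, and intact *alx-3(RNAi)* and *control(RNAi)* animals, with 3 libraries per group. Replicates are described as biological triplicates, but how many fragments were pooled in a library, or whether libraries of the 2 time points were made together, was not given in the sources used here, so time and library batch cannot be told apart.

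A planarian tail fragment holds no head, brain or pharynx and rebuilds them from neoblasts, the dividing adult stem cells of the flatworm. Muscle cells carry the positional signals: *wnt1* and other Wnt ligands are made at the tail end, whereas the Wnt inhibitor *notum* and secreted Frizzled-related proteins mark the head end. After the early wound response, a fragment forms an anterior pole, builds a blastema and shrinks its posterior domains to fit the new body proportions.

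The summed normalized counts were 54.5 to 56.8 M in the 72 HPA libraries and 54.7 to 64.9 M in the 48 HPA libraries. The counts had already been normalized between the libraries of each time point, so these sums do not measure sequencing depth. Values are given as CPM, in which each library is divided by its own total so that all libraries have the same sum. They are not divided by transcript length, so they compare libraries and not genes. Named ribosomal RNA transcripts took 12.4% ± 0.312 of the total at 72 HPA and 12.1% ± 0.144 at 48 HPA (SD, n = 3 each), with p = 0.3 by exact permutation (two-sided), where 0.1 is the smallest that 3 against 3 libraries allow. The few cell type markers that the transcript IDs name occur throughout the body, so they could not test the tail label against other fragments. Epidermal progenitor markers, the neural factor *COE*, the gut factor *NXK2.2*, the muscle gene *titin* and the parenchymal genes *FoxF1* and *ets-1* were detected in all 6 libraries, and no marker on these lists was at 0 in all of them. No pharynx or protonephridia marker is named by the IDs.

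One library stood further from the 72 HPA group than the others before any test. *Control(RNAi)* 48 HPA replicate 3 correlated less with the 3 72 HPA libraries (r = 0.980 to 0.984 over transcripts, log2 scale) than 48 HPA replicates 1 and 2 did (r = 0.989 to 0.991), and correlations within the 72 HPA group were 0.992. Transcripts are not independent replicates, so these values only describe the libraries. Of the 235 tested transcripts with a log2 fold change of -1 or lower, 222 were highest in 48 HPA replicate 3. In 137 that library was at least 2 times every other library. Without it, 127 of 31234 transcripts tested were at that size, and 118 of these were among the 235.

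Few transcripts were called as changed over this day, which does not show that the others stayed the same. Of 31687 transcripts tested with limma on log2(CPM + 0.1), 22 rose and 10 fell at 72 HPA relative to 48 HPA at a Benjamini-Hochberg adjusted p under 0.05, which is 0.101% of those tested (0.0694% higher, 0.0316% lower). The median log2 fold change over all tested transcripts was 0.06, and without 48 HPA replicate 3 it was 0.02. An unadjusted p under 0.05 was reached by 3923 transcripts (12.4%). The mean levels of the 32 ran from 0.3899 to 825 CPM, with a median of 35.0 CPM. Fold changes among 31 of them ran from -2.66 to 0.95 on the log2 scale. The other call, at 2.27, passed the filter on low values through the 72 HPA libraries alone, so it had to differ. In all, 3 of the 32 had an absolute value of at least 1, and the groups did not overlap in any of the 32. Scaling moved the direction: 22 of 32 calls (68.8%) were higher with CPM, 4 of 23 (17.4%) with the values as deposited (0.0726% of those tested) and 9 of 19 (47.4%) after median-of-ratios scaling (0.0600%), where the median of all transcripts was -0.04 and 0.00. The count also rested on single libraries, with 382, 2 and 77 calls without 48 HPA replicates 1, 2 and 3, and 25, 0 and 1 without 72 HPA replicates 1, 2 and 3. When the spread was estimated from all 18 *control(RNAi)* libraries, 301 of 31628 transcripts were called (0.952%), and 31 of the 32 were among them. With no filter on low values 103 of 58777 were called (0.175%), and one fit over all 36 libraries called 354 (1.12%).

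None of the 32 called transcripts carries a gene name in the files, and 4 are described, the 2 largest falls and the 2 largest rises among those with a mean of at least 1 CPM in both groups. SmedASXL_012836 had the lowest adjusted p of all, with 609, 597 and 666 CPM at 72 HPA, against 970.0, 1039 and 1066 CPM at 48 HPA. Every 72 HPA library lay below every 48 HPA library, with an adjusted p of 0.00399 for a log2 fold change of -0.72 (SE 0.0509). It was past the threshold of the adjusted p under all 13 other settings that kept every library and in 5 of the 6 fits that left one out, and it did not reach a size threshold of 1 on the log2 scale. SmedASXL_005306 fell to 5.11, 3.99 and 4.54 CPM at 72 HPA, against 8.74, 7.55 and 8.12 CPM at 48 HPA (log2 fold change -0.83, adjusted p = 0.0481). SmedASXL_067075 rose to 10.1, 13.3 and 13.1 CPM at 72 HPA, against 6.65, 6.06 and 5.89 CPM at 48 HPA (log2 fold change 0.95, adjusted p = 0.0355). SmedASXL_010365 rose to 9.99, 8.59 and 9.56 CPM at 72 HPA, against 5.36, 5.52 and 4.73 CPM at 48 HPA (log2 fold change 0.84, adjusted p = 0.0354). These 3 were less stable. Each missed the threshold in 2 of the 13 other settings, a mean of at least 1 CPM and the replicate block, and SmedASXL_005306, SmedASXL_010365 and SmedASXL_067075 passed in 2, 2 and 3 of the 6 fits that left a library out, with adjusted p values of up to 0.380, 0.298 and 0.340. Over the longer series SmedASXL_012836 was at 899.7 ± 132, 1366 ± 205, 1473 ± 340.3, 1025 ± 49.5 and 624 ± 36.8 CPM in order of time from 0.5 to 72 HPA, and at 1207 ± 123 CPM in intact animals (SD, n = 3 each).

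**Figure D1:**
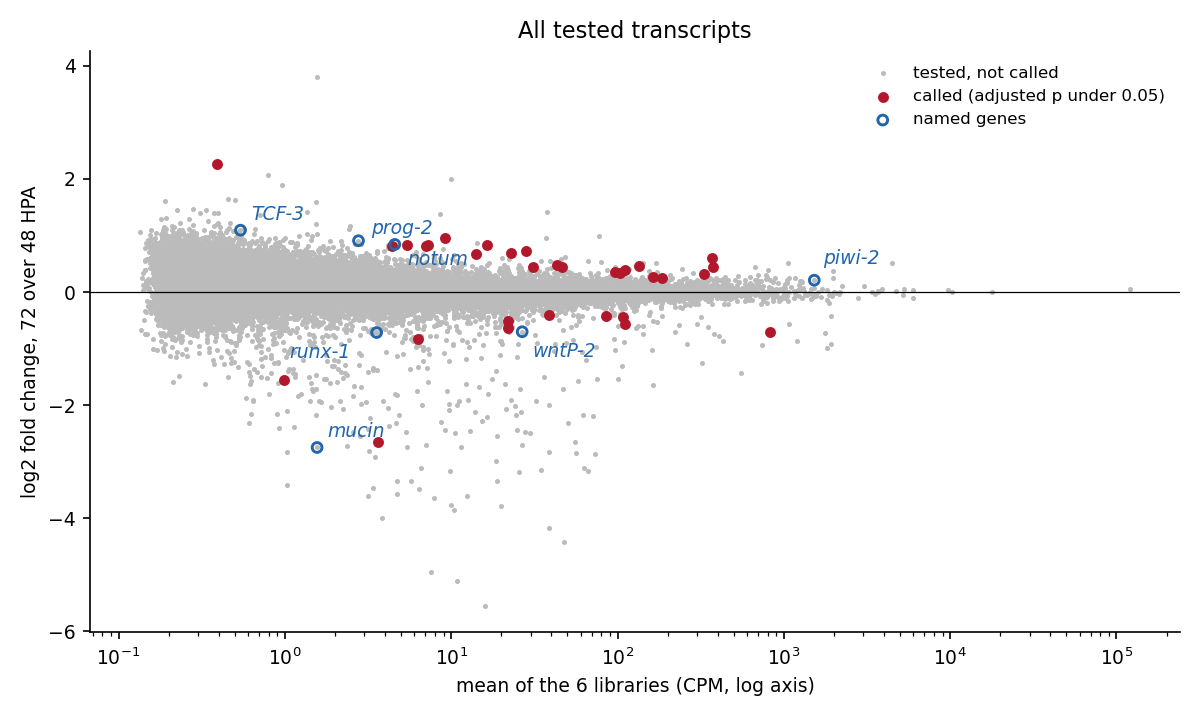
Each point is 1 of 31687 tested transcripts, with its mean over the 6 libraries on the x axis (CPM, log axis) and its log2 fold change, 72 over 48 HPA, on the y axis. The 32 called transcripts are red, open blue circles mark 7 named genes, none of them called, and most of the grey points below -1 are transcripts that were highest in 48 HPA replicate 3 (222 of 235).

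The files name 272 genes, and 256 of them were tested. None was called, against 0.101% of all tested transcripts. In 34 of the 256 (13.3%) every 72 HPA library was above every 48 HPA library, against 12.3% of all tested transcripts, and in 26 (10.2%) every 72 HPA library was below, against 6.70%. A lack of overlap in one gene was therefore common. Some settings gave named calls: 2 without 48 HPA replicate 3 (*prog-2* higher and *runx-1* lower), 5 without 48 HPA replicate 1 (*prog-2*, *kismet* and *H.1.3b spondin* higher, *rapunzel-1* and *spondin* smed016197 lower), 2 without 72 HPA replicate 1 (*wntP-2* and *tr5_12233* lower), 7 in the fit over 18 libraries and 7 in that over 36, leaving out ribosomal RNA. There were also 2 with no filter on low values, 1 with the values as deposited and 1 with the replicate block. With the values as deposited, which were normalized separately per time point, 89 of the 256 named genes turned their direction. After median-of-ratios scaling 52 did. The genes named in the rest of the text were picked by their place on the lists or, where a list is long, after their values were seen, and their values are given as measured.

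The posterior genes all had lower mean levels at 72 HPA, led by the Wnt ligand gene *wntP-2* (also called *wnt11-5*), which marks the trunk and tail. *wntP-2* was at 25.4, 19.2 and 16.9 CPM at 72 HPA, against 36.3, 31.8 and 30.9 CPM at 48 HPA. The groups did not overlap, and the lowest 48 HPA library was above the highest 72 HPA library. The log2 fold change of -0.70 (SE 0.131) had an unadjusted p of 0.000393 and an adjusted p of 0.0988, so it was not called. With the spread of all 18 controls its adjusted p was 0.00454, with all 36 libraries 0.000318, with no filter on low values 0.0444 and with the values as deposited 0.0404. In all it passed in 5 of the 13 other settings that kept every library, and the highest adjusted p was 0.124. Leaving out single libraries gave log2 fold changes from -0.87 to -0.58, with an adjusted p of 0.0880 without 48 HPA replicate 3, and the only one past the threshold was without 72 HPA replicate 1 (adjusted p = 0.0365). Whether fewer cells carried the transcript or each cell carried less cannot be told apart in RNA from whole fragments, here and in every result that follows.

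The zinc finger gene *teashirt*, which is needed for tail identity, was at 29.2, 25.7 and 24.7 CPM at 72 HPA, against 31.8, 31.9 and 32.3 CPM at 48 HPA (log2 fold change -0.27, adjusted p = 0.187). *wntP-3* (*wnt11-4*), another posterior ligand, was at 6.23, 6.17 and 5.98 CPM at 72 HPA, against 9.39, 8.56 and 6.96 CPM at 48 HPA (log2 fold change -0.42, adjusted p = 0.216). Neither gene overlapped between the groups. The transcription factor gene *sp5*, a Wnt target, was at 19.5, 14.7 and 13.1 CPM at 72 HPA, against 20.8, 19.4 and 20.1 CPM at 48 HPA, and 72 HPA replicate 1 reached the 48 HPA range (log2 fold change -0.37, adjusted p = 0.308). The Wnt receptor gene *Fzd-d* was at 22.8, 17.1 and 16.7 CPM at 72 HPA, against 27.5, 21.9 and 22.7 CPM at 48 HPA (log2 fold change -0.36, adjusted p = 0.322). *wnt11-1* and *wnt1* were the closest to no difference, with log2 fold changes of -0.18 and -0.24 and overlapping libraries, and that of *wnt1* is taken from levels of 0.605 to 1.35 CPM. In all, 0 of 7 posterior genes were called, 3 had every 72 HPA library below every 48 HPA library and none above (against 6.70% below and 12.3% above of all tested transcripts), and the median log2 fold change was -0.36, beside 0.06 over all tested transcripts. The summed level of the 7 was 128.7, 103.5 and 97.4 CPM at 72 HPA, against 158, 138 and 132 CPM at 48 HPA, without overlap. Without 48 HPA replicate 3 the list had a median of -0.38, 7 of 7 lower means and 0 calls. In that fit 3 genes were below without overlap, against 12.1% of all transcripts then tested.

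Among 10 anterior genes the means were higher at 72 HPA in 6 and lower in 4, 0 were called, and only *FoxD1* had groups without overlap. *notum*, which encodes a secreted enzyme that inactivates Wnt ligands and marks the anterior pole, was at 3.46, 6.37 and 7.98 CPM at 72 HPA, against 1.95, 4.03 and 3.71 CPM at 48 HPA. 72 HPA replicate 1 lay inside the 48 HPA range, and the log2 fold change of 0.84 (SE 0.326) had an adjusted p of 0.353. The Frizzled-related gene *sfrp-1*, a Wnt antagonist of the head tip, was at 6.18, 8.12 and 9.01 CPM at 72 HPA, against 4.70, 4.54 and 7.46 CPM at 48 HPA (log2 fold change 0.49, adjusted p = 0.369). The FGF receptor-like gene *ndk* (*nou-darake*), which restricts brain tissue to the head, was at 12.2, 20.6 and 23.8 CPM at 72 HPA, against 7.26, 9.80 and 28.3 CPM at 48 HPA. The library with 28.3 CPM is 48 HPA replicate 3, which was also the highest 48 HPA library for *wnt2-1*, *sfrp-1*, *sfrp2*, *sfrp3*, *ndk-3*, *ndk-4*, *wntA* and *FoxD1*, that is for all of the list except *notum*. The summed level of the 10 genes was 108, 120.4 and 135 CPM at 72 HPA, against 90.8, 99.6 and 156 CPM at 48 HPA. The list's median log2 fold change was 0.20, or 0.094 with the values as deposited. Without 48 HPA replicate 3 it was 0.48, 8 of 10 means were higher at 72 HPA and 5 of the 10 genes were above without overlap (15.4% of all transcripts then tested), and 0 were called. Of single genes, the log2 fold changes without that library were 1.10 for *ndk*, 0.72 for *sfrp-1* and 0.66 for *wnt2-1*, a Wnt ligand gene of the head, and none was called (adjusted p = 0.127, 0.106 and 0.0890). The forkhead gene *FoxD1*, which is needed to form the anterior pole, was at 2.29, 2.41 and 2.14 CPM at 72 HPA, against 3.12, 2.58 and 3.55 CPM at 48 HPA (log2 fold change -0.41, adjusted p = 0.337).

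**Figure D2:**
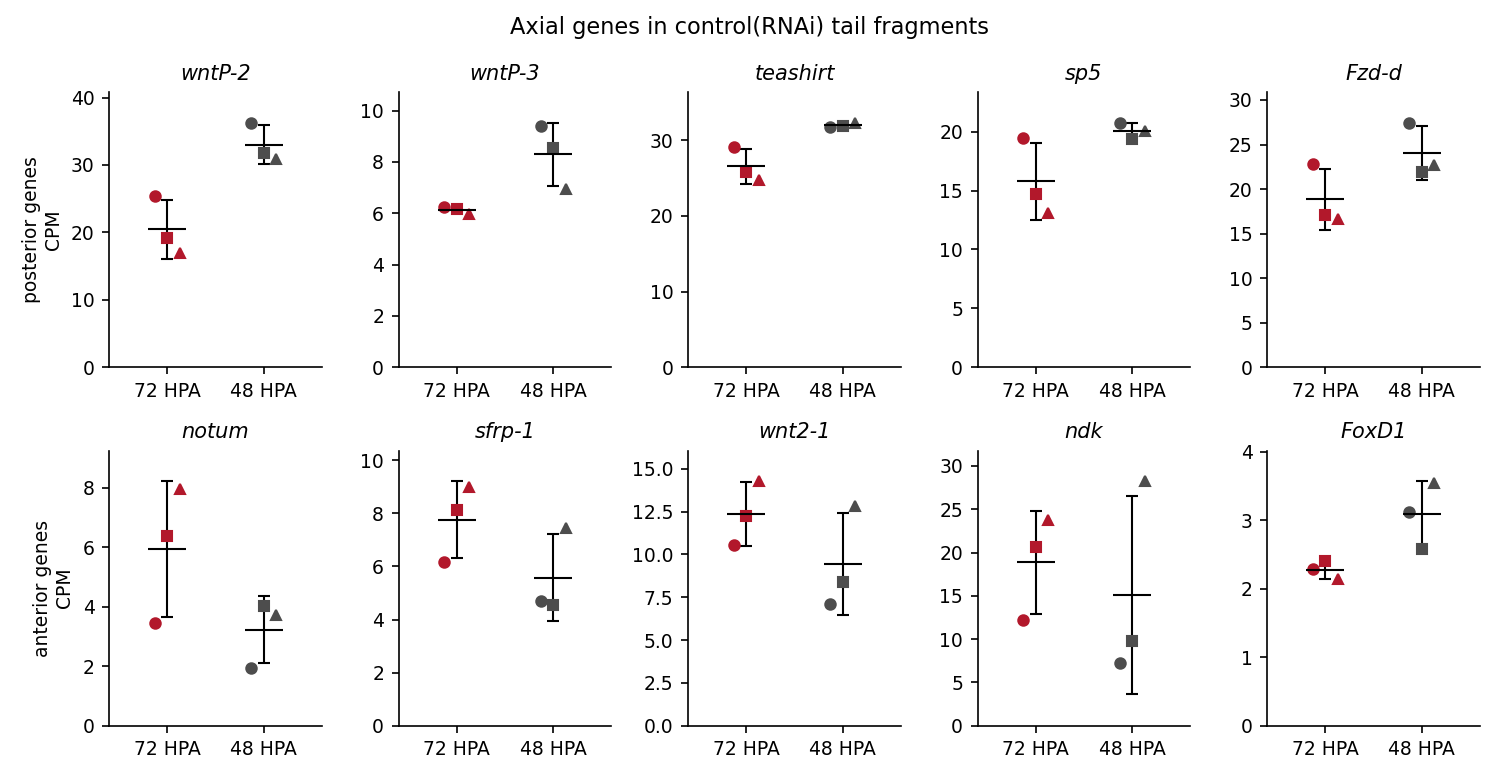
CPM of 5 posterior genes (top) and 5 anterior genes (bottom) in *control(RNAi)* tail fragments, with 72 HPA on the left (red) and 48 HPA on the right (grey) of each panel. Circles, squares and triangles are replicates 1, 2 and 3, and bars are the mean and SD (n = 3); *wntP-2*, *wntP-3* and *teashirt* have every 72 HPA library below every 48 HPA library, and 48 HPA replicate 3 is the highest 48 HPA library for 4 of the 5 anterior genes.

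In the Wnt pathway as a whole no gene was called. Of 19 pathway genes, which include 6 of the posterior and 6 of the anterior genes, 0 were called, with a median log2 fold change of -0.06. Without overlap, 1 had every 72 HPA library above and 3 had every 72 HPA library below (against 12.3% and 6.70% of all tested transcripts). Their summed level was 946, 929 and 943 CPM at 72 HPA, against 969.9, 964 and 979.9 CPM at 48 HPA, lower in every 72 HPA library. The β-catenin gene *Bcat-1*, the transcriptional effector of the pathway, was at 280.1, 278 and 281 CPM at 72 HPA, against 278, 267 and 273 CPM at 48 HPA. The transcript named *TCF-3*, for the DNA-binding partner of β-catenin, was at 0.742, 0.746 and 0.801 CPM at 72 HPA, against 0.181, 0.433 and 0.342 CPM at 48 HPA. It was low in all libraries and did not overlap between the groups (log2 fold change 1.09, SE 0.278, adjusted p = 0.196). In the TGF-β group of 4 tested genes, *follistatin*, an activin inhibitor, was at 14.7, 15.6 and 15.1 CPM at 72 HPA, against 18.2, 17.6 and 16.03 CPM at 48 HPA (adjusted p = 0.338). Its binding partner *activin* overlapped between the groups, and the signal transducer gene *smad23* was at 68.2, 68.1 and 68.9 CPM at 72 HPA, against 67.99, 65.2 and 67.1 CPM at 48 HPA. The receptor gene *activin-receptor-1* overlapped, and 0 of the 4 were called. Of 9 Hedgehog pathway genes 0 were called, and the median log2 fold change was 0.03. Of these 2 were above and 1 below without overlap (against 12.3% and 6.70% of all tested transcripts). The Hedgehog receptor gene *ptc* was at 40.3, 42.7 and 45.3 CPM at 72 HPA, against 47.1, 45.8 and 48.2 CPM at 48 HPA (log2 fold change -0.14, adjusted p = 0.366). The ligand gene *Hh* itself was low, at 0.354, 0.343 and 0.320 CPM at 72 HPA, against 0.289, 0.224 and 0.606 CPM at 48 HPA, with overlap. *gli-2*, a transcription factor gene of the pathway, was also low and did not overlap, at 0.693, 0.383 and 0.588 CPM at 72 HPA, against 0.199, 0.266 and 0.311 CPM at 48 HPA (adjusted p = 0.288), whereas its relatives *gli-1* and *gli-3* overlapped.

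The wound-induced and pole genes included the homeobox gene *alx-3* itself, the gene targeted in the other arm of the series. *alx-3* was at 18.2, 18.5 and 19.5 CPM at 72 HPA, against 16.2, 15.4 and 18.96 CPM at 48 HPA, and the groups overlapped through 48 HPA replicate 3 (log2 fold change 0.16, SE 0.0822, adjusted p = 0.474). *runx-1*, a transcription factor gene induced in neoblasts by wounding, was at 2.30, 3.00 and 2.55 CPM at 72 HPA, against 5.41, 5.26 and 2.86 CPM at 48 HPA. Only 48 HPA replicate 3 came down to the 72 HPA range, and the log2 fold change was -0.72 (adjusted p = 0.288). Without that library it was -1.01, with an adjusted p of 0.0323. Its paralog *runx-2* and the Notch ligand gene *delta-1* overlapped between the groups. Of the 8 genes in this group 0 were called, and the median log2 fold change was -0.19. Below without overlap were 2 (*FoxD1* and *follistatin*), and 0 were above (against 6.70% and 12.3% of all tested transcripts).

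Among stem cell genes, several lay a little higher at 72 HPA and none passed the test. Of 12 neoblast and Argonaute genes 0 were called, and the median log2 fold change was 0.05. Of these 6 were above and 1 below without overlap (against 12.3% and 6.70% of all tested transcripts). The largest rise was that of *soxP-1*, a SOX-family gene of neoblasts, at 61.8, 65.3 and 69.0 CPM at 72 HPA, against 54.2, 55.0 and 47.3 CPM at 48 HPA (log2 fold change 0.33, SE 0.0674, adjusted p = 0.133). *piwi-1*, the standard neoblast marker, was at 1028, 1085 and 1079 CPM at 72 HPA, against 997, 1019 and 868 CPM at 48 HPA. 72 HPA replicate 1 was close to the highest 48 HPA library, and the log2 fold change was 0.15 (adjusted p = 0.356). *piwi-2* was at 1579, 1656 and 1665 CPM at 72 HPA, against 1440.3, 1499.9 and 1305 CPM at 48 HPA, and *piwi-3* was at 1073, 1122 and 1147 CPM at 72 HPA, against 989, 1009 and 894 CPM at 48 HPA. Both encode Piwi proteins that bind small RNAs, both had a log2 fold change of 0.21, and their adjusted p was 0.189 and 0.176, or 0.0367 and 0.0191 with the spread of all 18 controls. Each passed in 2 of the 13 other settings that kept every library, with adjusted p of up to 0.611 and 0.586. Neither passed in a fit that left a library out. The proliferation gene *PCNA* was at 68.6, 79.0 and 77.9 CPM at 72 HPA, against 72.6, 81.5 and 68.1 CPM at 48 HPA, with no separation. *soxP-3* was the 1 gene below without overlap, at 26.0, 25.8 and 24.5 CPM at 72 HPA, against 30.6, 30.8 and 26.4 CPM at 48 HPA (log2 fold change -0.20, adjusted p = 0.324). In 48 HPA replicate 3 *piwi-1*, *piwi-2*, *piwi-3*, *soxP-1* and *bruli* all had their lowest value of the 6 libraries, and with the values as deposited the median of the list was -0.057. Without that library 6 genes were above and 2 below without overlap (against 15.4% and 12.1% of all transcripts then tested). Again 0 were called, and the median was -0.0011.

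Chromatin genes lay close together at both times. Of 13 Mediator, deacetylase and remodelling genes 0 were called and 4 were above without overlap (30.8%, against 12.3% of all tested transcripts), none was below, and the median log2 fold change was 0.05, or 0.0019 without 48 HPA replicate 3, which had the lowest level of the 6 libraries for 9 of the 13. Without that library 4 were above and 2 below without overlap (against 15.4% and 12.1% of all transcripts then tested). With the values as deposited 10 of the 13 turned their direction and the median was -0.060. The remodeller gene *chd4/Mi-2* was at 346, 347 and 365 CPM at 72 HPA, against 322, 311 and 294 CPM at 48 HPA (log2 fold change 0.19, SE 0.0432, adjusted p = 0.153). *HDAC1*, a histone deacetylase gene, was at 509.6, 498 and 504 CPM at 72 HPA, against 477, 487 and 471 CPM at 48 HPA (log2 fold change 0.07, adjusted p = 0.394), and this turned to -0.032 with the values as deposited. A further 9 chromatin genes were grouped after their values were seen, so their counts can follow from that choice and are no test of chromatin genes. All 9 had means above 48 HPA by fold changes of 0.01 to 0.23 on the log2 scale, and 0 were called. Above without overlap were 4 of them (*ISWI-1*, *kismet*, *Ash1* and *dom-1*), against 12.3% of all tested transcripts. With the values as deposited 5 of the 9 turned to lower and the median was -0.0039.

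Among epidermal genes none was called, and the largest fold change was that of 1 low transcript. *prog-2*, of the *prog* family expressed in early epidermal progenitors, was at 3.65, 3.82 and 3.45 CPM at 72 HPA, against 2.01, 1.68 and 2.02 CPM at 48 HPA. The groups lay well apart, with a log2 fold change of 0.91 (SE 0.136, unadjusted p = 7.38e-05), and the adjusted p of 0.0568 was just outside the threshold. It was 0.0160 with the spread of all 18 controls and 0.0421 without 48 HPA replicate 3. In all *prog-2* passed in 3 of the 13 other settings that kept every library, with adjusted p of up to 0.115. Of the 6 fits that left a library out it passed in 2, with adjusted p of up to 0.447. The other 17 tested members of the family had log2 fold changes from -0.19 to 0.11, and the value of one transcript in such a multigene family is uncertain where counting can split reads between copies, which was not tested. *prog-1* was at 177, 195 and 199 CPM at 72 HPA, against 200.3, 209 and 197 CPM at 48 HPA (adjusted p = 0.508). Of the 18 *prog* genes 0 were called, 1 was above and 2 below without overlap (against 12.3% and 6.70% of all tested transcripts). The 5 *AGAT* genes, markers of later epidermal progenitors, all had lower means at 72 HPA with a median log2 fold change of -0.09. Below without overlap was 1 of 5 (*AGAT5*), against 6.70% of all tested transcripts. *AGAT5* was at 2.09, 2.88 and 2.30 CPM at 72 HPA, against 3.06, 3.52 and 3.03 CPM at 48 HPA (adjusted p = 0.352), and *AGAT2* was at 454, 454 and 421 CPM at 72 HPA, against 483, 489.6 and 428 CPM at 48 HPA. *AGAT1*, *AGAT3* and *AGAT4* overlapped. The summed *AGAT* level was 987, 990.0 and 925 CPM at 72 HPA, against 1055, 1079 and 943 CPM at 48 HPA. Without 48 HPA replicate 3 all 5 *AGAT* genes and 8 of the 18 *prog* genes were below without overlap (12.1% of all transcripts then tested), and of these lists only *prog-2* was called.

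Secreted and matrix genes showed the widest spread, and most of it was between the 48 HPA libraries. The transcript named *mucin*, for gel-forming glycoproteins of mucus, was at 0.168, 0.161 and 0.178 CPM at 72 HPA, against 0.398, 1.61 and 6.86 CPM at 48 HPA. The 3 72 HPA libraries were alike and the 48 HPA libraries differed by more than 10 times among themselves, so a log2 fold change of -2.75 (SE 0.746) had an adjusted p of 0.218. *mucin* passed the filter on low values through the 48 HPA libraries alone, so it had to differ and could not be fitted without any of them. The transcript named for *von Willebrand factor* was at 1.31, 1.25 and 1.78 CPM at 72 HPA, against 2.12, 2.36 and 11.6 CPM at 48 HPA (log2 fold change -1.38, adjusted p = 0.352). *spondin* smed012475, one of 8 *spondin* transcripts, was at 0.118, 0.0807 and 0.303 CPM at 72 HPA, against 0.670, 0.377 and 2.31 CPM at 48 HPA (adjusted p = 0.243). *spondin* smed016197 was at 1.67, 1.15 and 0.943 CPM at 72 HPA, against 1.99, 3.30 and 4.67 CPM at 48 HPA (adjusted p = 0.169). 48 HPA replicate 3 was the highest library for all 4. Without 48 HPA replicate 1 *spondin* smed016197 was called (log2 fold change -1.61, adjusted p = 0.0218). Without replicate 3 the log2 fold change of *von Willebrand factor* was -0.61 and that of *spondin* smed012475 was -1.27, and neither was called. Another member of the family was higher at 72 HPA without overlap: *spondin* SmedASXL_019263 was at 145, 173 and 181 CPM at 72 HPA, against 118, 133 and 102 CPM at 48 HPA (log2 fold change 0.50, SE 0.103, adjusted p = 0.131, or 0.0137 with the spread of all 18 controls). *H.1.3b spondin* was at 729, 753 and 719 CPM at 72 HPA, inside the 48 HPA range of 904, 584 and 475 CPM (log2 fold change 0.22, adjusted p = 0.645), and without 48 HPA replicate 1 it was called (log2 fold change 0.48, adjusted p = 0.0214). *LOXL2*, named for an enzyme that crosslinks collagen, was at 12.6, 13.1 and 14.4 CPM at 72 HPA, against 10.5, 11.1 and 10.9 CPM at 48 HPA (log2 fold change 0.29, adjusted p = 0.197). Of 12 tested genes in the group 0 were called, 2 were above and 4, with *mucin*, below without overlap (against 12.3% and 6.70% of all tested transcripts), and the median log2 fold change was -0.04, or -0.15 with the values as deposited.

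**Figure D3:**
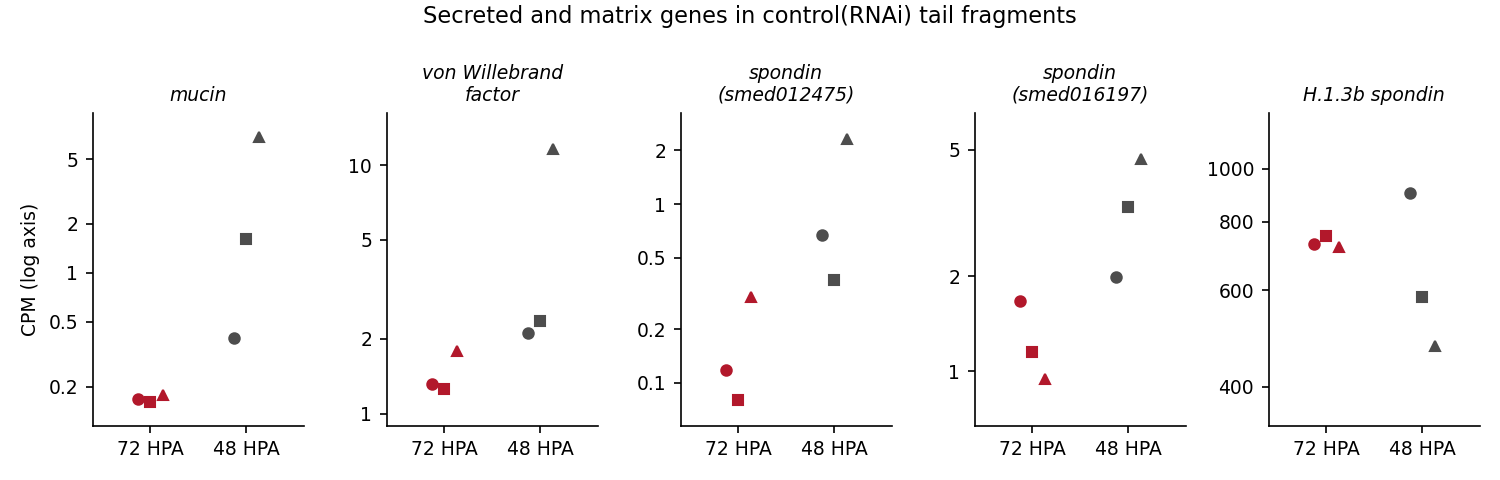
CPM (log axis, a separate scale per panel) of 5 secreted or matrix genes in *control(RNAi)* tail fragments, with 72 HPA on the left (red) and 48 HPA on the right (grey). Circles, squares and triangles are replicates 1, 2 and 3; the 72 HPA libraries of *mucin* lie between 0.161 and 0.178 CPM, and the 48 HPA libraries between 0.398 and 6.86 CPM.

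Nervous system genes held no call, and 2 did not overlap between the groups. *soxB-1*, a SOX gene of neural and sensory ectoderm, was at 10.1, 10.9 and 9.70 CPM at 72 HPA, against 8.16, 7.69 and 8.74 CPM at 48 HPA (log2 fold change 0.32, adjusted p = 0.210). *COE*, a transcription factor gene of differentiating neurons, was at 20.1, 20.4 and 20.5 CPM at 72 HPA, against 18.7, 15.97 and 18.9 CPM at 48 HPA (log2 fold change 0.19, adjusted p = 0.355). Of 15 tested neural transcription factor genes 0 were called, 2 were above (13.3%, against 12.3% of all tested transcripts) and 0 below, with a median log2 fold change of 0.10. Without 48 HPA replicate 3, 5 of the 15 were above (33.3%, against 15.4% of all transcripts then tested) and 2 below, and *runx-1*, which is also on this list, was called. The gap junction gene *innexin-1*, which is on none of the lists and was chosen after its values were seen, was at 17.1, 16.7 and 18.7 CPM at 72 HPA, against 14.2, 13.7 and 12.6 CPM at 48 HPA (log2 fold change 0.37, SE 0.0743, adjusted p = 0.119, or 0.0192 with the spread of all 18 controls). That fit was the only 1 of the 13 other settings in which it passed, with adjusted p of up to 0.298 in the rest. It passed in no fit that left a library out.

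The remaining groups held no call. Of 22 nuclear hormone receptor genes 1 was above and 1 below without overlap (against 12.3% and 6.70% of all tested transcripts). Their median log2 fold change was -0.03. Of 6 pigment and heme synthesis genes 2 were below without overlap (against 6.70% of all tested transcripts). They were *albino* and the forkhead gene *FoxF1*, at log2 fold changes of -0.13 and -0.10. *albino* was at 49.5, 49.0 and 51.0 CPM at 72 HPA, against 55.02, 55.4 and 53.2 CPM at 48 HPA. *ALAS* and *PBGD-1*, of heme and porphyrin synthesis, the kynurenine enzyme gene *KMO-1* and *ets-1* overlapped. The 4 tested DNA damage genes (*p53*, *ATM*, *ATR* and *BRCA2*), the 2 *MyD88* genes of innate immunity and the 6 intraflagellar transport and ciliary kinesin genes (*IFT52*, *IFT88*, *IFT172*, *Kif3A*, *Kif3B* and *Kif27*) all overlapped, with list medians of 0.06, 0.01 and -0.01, or -0.047, -0.093 and -0.12 with the values as deposited. *p53*, which in planarians is expressed in early postmitotic progenitors, was at 82.2, 78.2 and 78.1 CPM at 72 HPA, against 84.5, 85.1 and 73.5 CPM at 48 HPA. The 5 genes of a last list had been picked because they respond to *alx-3* knockdown elsewhere in these libraries, so they are not independent of the series. One of them, *tr5_12233*, was at 18.2, 13.1 and 12.2 CPM at 72 HPA, against 24.3, 20.6 and 21.7 CPM at 48 HPA (log2 fold change -0.63, SE 0.135, adjusted p = 0.144, or 0.0123 with the spread of all 18 controls). It passed in 2 of the 13 other settings (adjusted p of up to 0.154) and in 1 fit that left a library out. Another, *rapunzel-1*, was at 73.1, 85.4 and 71.5 CPM at 72 HPA, against 67.2, 154 and 154 CPM at 48 HPA, where 48 HPA replicate 1 alone was at the 72 HPA level. The log2 fold change was -0.61 (adjusted p = 0.398), and -1.01 with an adjusted p of 0.000483 without that library. The other 3, *lactb*, *pepck* and *vim-1*, overlapped between the groups.

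Set in the longer series of *control(RNAi)* libraries, the levels at 48 and 72 HPA are described here without a test. *wntP-2* was level at 46.4 ± 3.16, 48.1 ± 3.43 and 45.9 ± 1.63 CPM at 0.5, 6 and 24 HPA, then 33.0 ± 2.89 at 48 HPA and 20.5 ± 4.37 at 72 HPA, against 26.9 ± 2.28 in whole intact animals (SD, n = 3 each). The 72 HPA level overlapped the intact range through replicate 1 only. *teashirt*, *sp5* and *Fzd-d* were also lowest at 72 HPA among the fragments, with 26.5 ± 2.32, 15.8 ± 3.30 and 18.8 ± 3.41 CPM there, against 28.2 ± 1.35, 14.3 ± 0.752 and 14.3 ± 0.761 CPM in intact animals. Intact animals hold head, trunk and tail, so their level is that of a whole body and not of a tail. *wnt1* had its highest level at 6 HPA (4.23 ± 0.626 CPM) and was at 1.03 ± 0.3001 and 0.863 ± 0.246 CPM at 48 and 72 HPA. *runx-1* also peaked at 6 HPA (23.5 ± 1.28 CPM). *notum* had 2 high points, 4.84 ± 0.675 CPM at 6 HPA and 5.93 ± 2.29 CPM at 72 HPA, with 3.95 ± 0.337 and 3.23 ± 1.117 CPM at 24 and 48 HPA. *piwi-1* was at 504 ± 5.82, 531 ± 33.2, 784 ± 20.7, 962 ± 81.5 and 1064 ± 31.4 CPM from 0.5 to 72 HPA, against 447 ± 13 CPM in intact animals. *soxP-1* was at 18.3 ± 0.420, 14.97 ± 0.325, 39.6 ± 1.64, 52.2 ± 4.27 and 65.4 ± 3.56 CPM at the same times, against 19.5 ± 2.71 CPM in intact animals. *prog-2* stayed between 1.71 and 2.05 CPM on average at 0.5 to 48 HPA and was at 3.64 ± 0.187 CPM at 72 HPA.

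**Figure D4:**
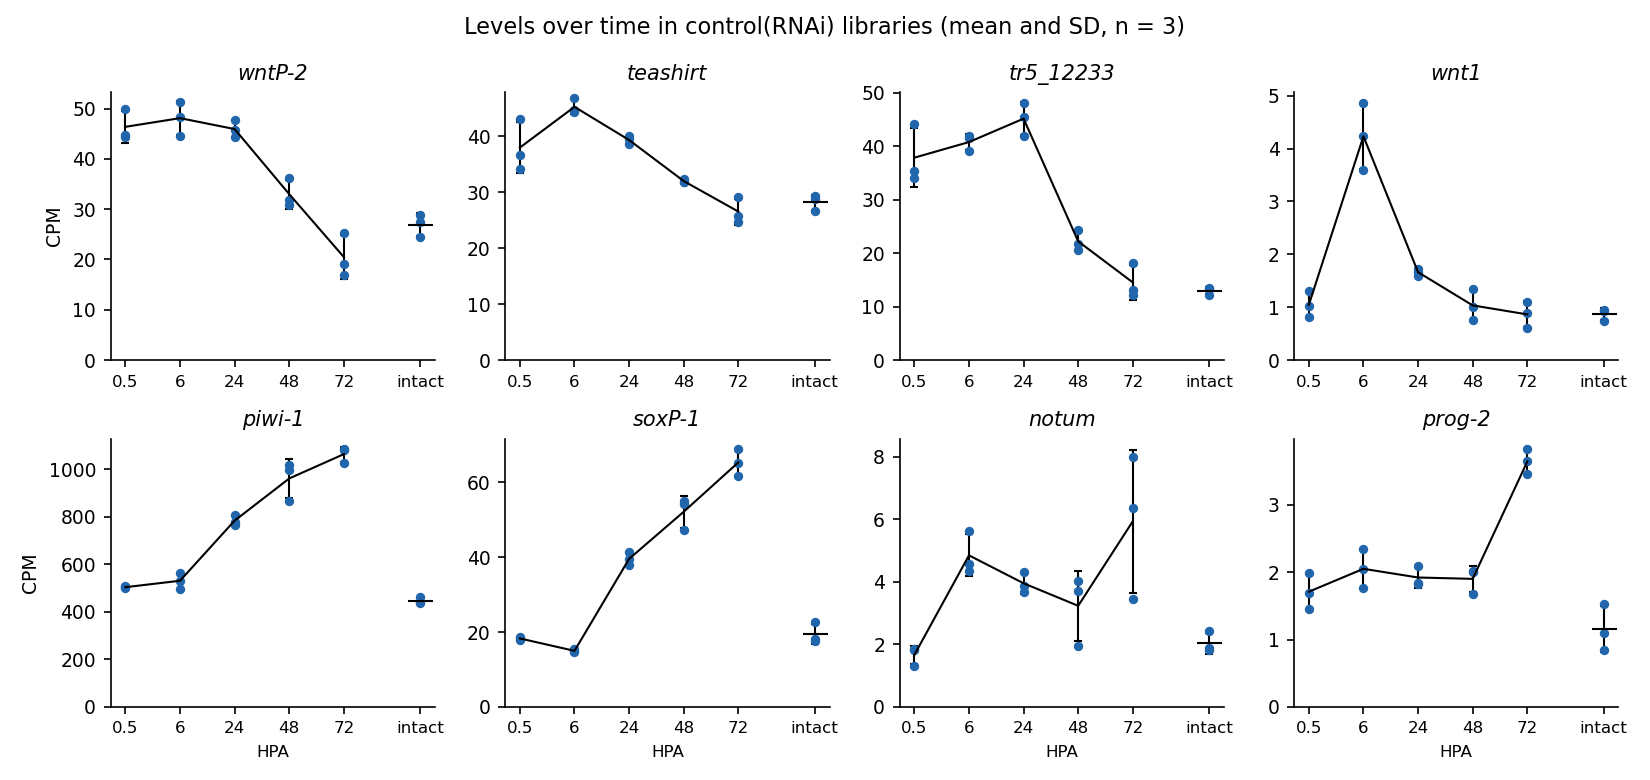
Levels in CPM of 8 genes in *control(RNAi)* libraries at 5 times from 0.5 to 72 HPA (evenly spaced on the x axis) and in intact animals, with each library as a blue point and the mean and SD in black (n = 3). *wntP-2* and *tr5_12233* are lowest at 72 HPA among the tail fragments, *piwi-1* and *soxP-1* are highest there, and *wnt1* is highest at 6 HPA (4.23 CPM).

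The same day was compared with that of *alx-3(RNAi)* tail fragments, which had 9 feedings of *alx-3* double-stranded RNA. The knockdown was present at both times: *alx-3* was at 4.01, 4.65 and 5.42 CPM in *alx-3(RNAi)* libraries at 72 HPA and at 4.42, 3.60 and 4.62 CPM at 48 HPA, below every control library. In a limma interaction over the 12 libraries, 0 of 33800 transcripts differed in their change between 48 and 72 HPA at an adjusted p under 0.05, and 2374 (7.02%) did at an unadjusted p under 0.05. That count of 0 was 48 with no filter, 41 with the values as deposited, 28 with median-of-ratios scaling and 263 without *control(RNAi)* 48 HPA replicate 1. *wntP-2* was at 38.1, 31.9 and 33.2 CPM at 72 HPA and 36.3, 37.4 and 35.7 CPM at 48 HPA in *alx-3(RNAi)* fragments, a log2 fold change of -0.09, against -0.70 in *control(RNAi)* fragments. The difference of 0.62 (SE 0.159) had an adjusted p of 0.343. For *teashirt* the log2 fold change was 0.10 in *alx-3(RNAi)* and -0.27 in *control(RNAi)* fragments (difference 0.37, SE 0.0999, adjusted p = 0.370). For *prog-2* it was -0.04 in *alx-3(RNAi)* and 0.91 in *control(RNAi)* fragments (difference -0.95, SE 0.207, adjusted p = 0.173). *notum* was at 2.04, 1.96 and 1.66 CPM in *alx-3(RNAi)* fragments at 72 HPA and 1.75, 1.19 and 1.62 CPM at 48 HPA, and the difference of the changes was -0.54 (adjusted p = 0.861). None of these differences passed the test, and none is shown to be absent.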

How the data were processed

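RNA from whole fragments was extracted with Trizol, and TruSeq polyA libraries were sequenced as paired 50 bp reads. Per the labels and the methods of the study, the authors trimmed reads with Trimmomatic 0.39, quantified transcripts of an asexual transcriptome with Salmon 1.4.0 and normalized with DESeq2 1.30.1, separately per time point. The deposited values are a signal, normalized counts of each transcript in each library, although their header says RPKM. What 1 read is worth varied between transcripts of a library, so whole reads were not recovered and no count model was run. Tables of the authors' own comparisons (fold changes and p-values) were not used.

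Each library was divided by its total (CPM). The 58777 IDs in both tables (62882 at 72 HPA, 62171 at 48 HPA) were filtered at 0.2 CPM in at least 3 of 6 libraries, and log2(CPM + 0.1) was tested with limma 3.58.1 in R 4.3.3 (two-sided, trend), Benjamini-Hochberg adjusted over all tested transcripts. Fold changes are on this scale, which understates those of low genes. The interaction used 12 libraries, and p-values measure only the spread between these libraries. The fitting was tested on simulated data. Gene names came from IDs, and *alx-3* from the study. By rule, called members of the lists, members of short lists, pole genes and the largest calls were to be named; other names were chosen after their values were seen. The members and lists were chosen with earlier results of these data known. Alternatives were pseudocounts of 0.02 and 0.5, other filters, IDs of either table, 5 other scalings, one fit over 18 or 36 libraries, the replicate number as a block, a size threshold of 1 on the log2 scale, and fits without each library in turn. The gene lists without 48 HPA replicate 3 were added after seeing the data.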

Additional observations from a re-analysis of the deposited data

How the results depend on the processing

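The count of called transcripts, 32, was 103 with no filter on low values, 1 with a mean of at least 1 CPM, 3 with a size threshold of 1 on the log2 scale, 19 with median-of-ratios scaling, 354 in one fit over all 36 libraries and 301 in one fit over the 18 *control(RNAi)* libraries. Leaving out 1 library gave 0 to 382 calls. For the difference between *alx-3(RNAi)* and *control(RNAi)* fragments, 0 calls became 48 with no filter, 41 with the values as deposited, 28 with median-of-ratios scaling, 4 in one fit over all 36 libraries and 0 to 263 when 1 library was left out. Samples with the same replicate number did not deviate together (correlations -0.04, 0.04 and -0.12). With 3 libraries per group these values cannot tell whether the numbers pair libraries in the design. With the replicate block 22 transcripts were called, 13 of them among the 32, and 0 in the interaction. Scaling shifted the list medians. With the values as deposited they were 0.094 for anterior genes, -0.14 for *prog*, -0.047 for DNA damage, -0.15 for *spondin*, mucin and matrix, -0.30 for polarity and pole genes, -0.17 for the Wnt pathway, -0.15 for TGF-β, -0.072 for Hedgehog, -0.20 for *AGAT*, -0.12 for pigment, -0.057 for neoblast and Argonaute, -0.00468 for neural factors, -0.14 for nuclear hormone receptors, -0.060 for chromatin and Mediator, -0.093 for innate immune and -0.12 for ciliary genes. With median-of-ratios scaling they were -0.11 for TGF-β, -0.024 for Hedgehog, -0.074 for pigment, -0.088 for nuclear hormone receptors and -0.012 for chromatin and Mediator genes. Of the 256 named genes 89 turned their direction with the values as deposited and 52 with median-of-ratios scaling. Among the genes followed singly through every setting, 4 turned: *bruli* (-0.00155) and *HDAC1* (-0.032) with the values as deposited, *wnt11-1* (-0.38 to 0.011) and *PCNA* (-0.037 to 0.092) when single libraries were left out, and *PCNA* also with the values as deposited (-0.085) and median-of-ratios scaling (-0.038). With the values as deposited every list median was lower, by a similar amount. Anterior genes went from 0.20 to 0.094, posterior genes from -0.36 to -0.46, and polarity and pole genes from -0.19 to -0.30. Those values were normalized separately per time point, with mean library totals of 55.5 M at 72 HPA and 59.9 M at 48 HPA. A turned direction there can therefore follow from the scale of the tables. Any further cause of these shifts was not tested. The difference in the ribosomal RNA share, 0.33 percentage points, was 0.18 to 0.49 points when 1 library was left out. The planned count model was not run. Precision is limited by 3 libraries per group.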
